A study of Mus musculus with 4 samples.

Results

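Lin28a, Lin28b, Trim71, Igf2bp1, Igf2bp2, Igf2bp3, Hmga1 and Hmga2 are 8 growth genes that meet at the microRNA let-7. They were taken by symbol from a read count table with 55357 gene identifiers, in which all 8 were found, and all 8 passed the low-count filter that left 17422 genes to test. The rule is by name and uses no level measured here, but it was set with earlier results of these data known. All 4 libraries were made from testis cells of C57BL/6 mice at an age of 7 days. In 2 of them the RNA had been precipitated with an antibody to DDX20 after ultraviolet crosslinking (DDX20 RIP), and 2 were made from input RNA, 10% of the total, with no antibody. DDX20 (Gemin3) is an RNA helicase with a DEAD box that belongs to the SMN complex, the assembler of spliceosomal particles.

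The labels name no genotype or treatment, call the material only mouse testis cells and give the antibody of the RIP replicates under catalogue numbers that differ by 1 digit. Whether the replicates are separate cell preparations is not given in the sources used here, so p-values measure only the spread between these libraries, which may be technical. No control precipitation was analysed here. A gene called higher made up a greater part of the reads after precipitation, which does not measure binding by DDX20.

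LIN28A and LIN28B are RNA-binding proteins that hold let-7 precursors back from maturation, and LIN28A marks undifferentiated spermatogonia in the testis. Mature let-7 in turn represses messages that carry matches to its seed in the 3′ UTR, among them those of LIN28 itself, of the RNA-binding ubiquitin ligase TRIM71 (LIN41), of the IGF2BP proteins that stabilise and transport messages, and of HMGA2, an AT-hook protein that bends DNA. These genes are high in the embryo and in dividing progenitors, and most fall as let-7 accumulates.

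The mature let-7 sequences are shown because their seed, bases 2 to 8 in capitals, is the letter string that ties the 8 genes together. The RefSeq miRNA table for GRCm38.p6 holds 11 mature 5′ sequences of the family, of which 10 share 1 seed and only let-7j has another.
let-7a-5p: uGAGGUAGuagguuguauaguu
let-7d-5p: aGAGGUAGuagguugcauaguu
let-7i-5p: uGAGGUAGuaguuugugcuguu
miR-98-5p: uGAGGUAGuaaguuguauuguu
let-7j: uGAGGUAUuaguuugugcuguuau

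Every one of the 8 messages has at least 1 let-7 seed match in its 3′ UTR, read along the transcript strand of 1 representative transcript per gene in the GENCODE M21 annotation of GRCm38. Searched were the 8mer CTACCTCA and, where it did not hold an 8mer, the 7mer CTACCTC (bases 2 to 8) or TACCTCA (bases 2 to 7 followed by A). Of 20830 protein-coding genes with a 3′ UTR, 13.7% had any such match and 2.77% an 8mer, at a median 3′ UTR length of 848 nt. The 8 genes have longer 3′ UTRs, with a median of 2876 nt, and 1.07 matches per kb against 0.123 per kb over all genes. They were listed for their ties to let-7, so an excess of matches came with the choice of genes. A match is a run of letters and was not tested as a site of repression in these cells.

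Hmga2 held the most matches, 7 in 2977 nt (1 8mer), a number reached by 0.101% of the 988 3′ UTRs within 10% of its length. That share is the 3′ UTR of Hmga2 itself, since each gene is counted among those of like length. Trim71 held 6 in 5512 nt (4 8mers), Lin28b 5 in 4445 nt (1 8mer), and Igf2bp1 5 in 6337 nt (3 8mers). As many were found in 0.592%, 0.76% and 1.00% of 3′ UTRs of like length. Such low shares, too, come with a list of genes tied to let-7. Lin28a held 2 in 2775 nt, both 8mers, and Igf2bp2 2 in 1784 nt (1 8mer). Igf2bp3 held a single 8mer in 2119 nt and Hmga1 a single 7mer in 1178 nt. At those lengths 23.9% and 13.0% of all 3′ UTRs have a match of any kind too, and at that of Igf2bp3 4.77% have an 8mer. The first 8mers of Hmga2 and Lin28b begin 21 and 36 nt into the 3′ UTR, close behind the stop codon, and Trim71 has 8mers at 166 and 262 nt and again at 3591 and 3617 nt. The first 8mer of each gene, or for Hmga1 its only match, is printed with the bases before it, and the pairing letters are in capitals (GRCm38 coordinates).
Lin28a, chr4:134005189-134005210, minus strand: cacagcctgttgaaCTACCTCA
Lin28b, chr10:45381022-45381043, minus strand: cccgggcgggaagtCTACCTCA
Trim71, chr9:114512472-114512493, minus strand: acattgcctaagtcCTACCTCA
Igf2bp1, chr11:95961778-95961799, minus strand: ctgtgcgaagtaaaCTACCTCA
Igf2bp2, chr16:22059473-22059494, minus strand: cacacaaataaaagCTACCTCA
Igf2bp3, chr6:49086787-49086808, minus strand: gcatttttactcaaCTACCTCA
Hmga2, chr10:120364224-120364245, minus strand: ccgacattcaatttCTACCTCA
Hmga1, chr17:27563278-27563299, plus strand: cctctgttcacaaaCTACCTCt

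The deposited counts summed to between 21416567 and 21913977 per input library and between 37927689 and 38458014 per RIP library. Levels are given as CPM (each count as a share of its library, in parts per 1000000) after scaling by the trimmed mean of M values (TMM), and the groups were compared by edgeR's quasi-likelihood test, Benjamini-Hochberg adjusted over all 17422 genes. In that test 77.3% of genes passed an adjusted p of 0.05, 38.7% higher in RIP and 38.6% lower. Of the 8 axis genes 4 passed. Igf2bp1, Trim71 and Igf2bp3 rose, Hmga1 fell (with an offset for coding length it stood at 0.40), and Lin28a, Lin28b, Igf2bp2 and Hmga2 did not pass. The median log2 fold change of the 8 was 0.08, against -0.05 over all genes tested. The share called and the share in each direction were thus not above those of all genes, and the members are described by their own values. Tested against a 1.5-fold change, 49.6% of all genes passed and 3 of the 8 did, Igf2bp1, Trim71 and Hmga1. Scaling by total counts put the median of all genes at -0.40 and called 28.7% higher and 50.8% lower, so directions near 0 hold only relative to TMM.

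**Figure D1:**
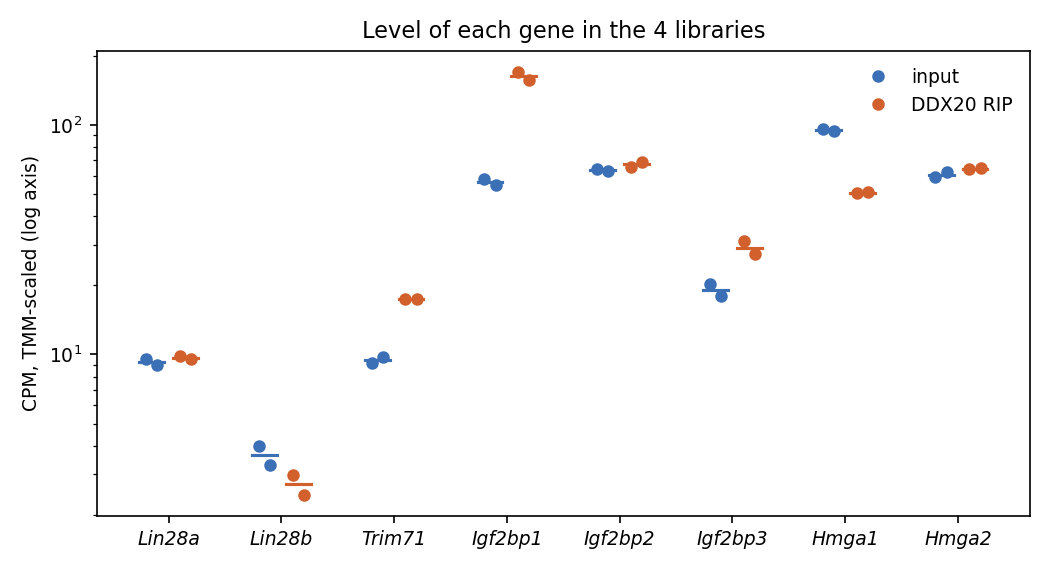
CPM after TMM scaling (log axis) of the 8 axis genes in each library, with input in blue, DDX20 RIP in orange, 1 point per library and a bar at each mean of 2 libraries. Igf2bp1 stood at 58.3 and 54.7 CPM in input and at 170.2 and 156.1 CPM in RIP, while the Hmga1 points lie lower in RIP and the Lin28a points nearly level.

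Among the let-7 regulators, the 2 LIN28 messages were scarce and did not pass the test. Lin28a (ENSMUSG00000050966.10, chromosome 4 from 134003330 to 134018841, minus strand) had 236 and 217 counts in the input libraries and 332 and 324 in RIP. These are 9.56 and 8.98 CPM in input and 9.81 and 9.58 CPM in RIP. The RIP libraries lay just above the input libraries, and the group means were closer than the input libraries were to each other. The log2 fold change was 0.06 ± 0.125 (SE, n = 2 libraries per group), with an adjusted p of 0.649 in edgeR's quasi-likelihood test.

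Lin28b (ENSMUSG00000063804.9, chromosome 10 from 45376620 to 45486395, minus strand), the paralog that keeps let-7 precursors in the nucleus in several cell types, was the rarest of the 8. It had 99 and 80 counts in input and 101 and 83 in RIP, or 4.01 and 3.31 CPM against 2.99 and 2.45 CPM. Both RIP libraries were lower than both input libraries, but the log2 fold change of -0.43 ± 0.218 was not called (adjusted p = 0.0728, edgeR's quasi-likelihood test). It was called lower with total counts, at -0.78 (adjusted p = 0.00164 in edgeR's test), under which Lin28a was also called lower, at -0.28 (adjusted p = 0.0394 in edgeR's test).

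Trim71 (ENSMUSG00000079259.3, chromosome 9 from 114507133 to 114564369, minus strand), the ligase that represses messages in stem and germ cells, stood at 9.20 and 9.77 CPM in input and at 17.47 CPM in both RIP libraries, from 227, 236, 591 and 591 counts. The groups were far apart compared with their spread. Trim71 was 1.84-fold higher in RIP, a log2 fold change of 0.88 ± 0.108 (adjusted p = 5.65e-09, edgeR's quasi-likelihood test).

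The 3 IGF2BP messages encode proteins of like size, at 577, 592 and 579 residues for Igf2bp1, Igf2bp2 and Igf2bp3, yet differed in RIP over input. Igf2bp1 (ENSMUSG00000013415.10, chromosome 11 from 95957163 to 96005940, minus strand), known for stabilising fetal growth messages and for carrying beta-actin RNA, rose from 58.3 and 54.7 CPM to 170.2 and 156.1 CPM. This 2.89-fold difference, a log2 fold change of 1.53 ± 0.0465, was the largest of the 8 (adjusted p = 2.68e-25, edgeR's quasi-likelihood test) and larger than that of 93.9% of genes tested. Igf2bp3 (ENSMUSG00000029814.11, chromosome 6 from 49085223 to 49214957, minus strand), the most strictly fetal of the family, stood at 20.3 and 18.0 CPM in input and at 31.1 and 27.3 CPM in RIP. It rose by a log2 fold change of 0.61 ± 0.0862 (adjusted p = 1.18e-07, edgeR's quasi-likelihood test), and neither RIP library was as low as an input library.

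Igf2bp2 (ENSMUSG00000033581.18, chromosome 16 from 22059009 to 22163299, minus strand), the member that persists in adult tissues, stood at 64.4 and 63.0 CPM in input and at 65.7 and 69.0 CPM in RIP. Its log2 fold change of 0.08 ± 0.0514 was not called (adjusted p = 0.154, edgeR's quasi-likelihood test). With total counts it was called lower, at -0.27.

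The 2 HMGA messages differed in RIP over input, but lay close with an offset for total exonic length (-0.36 for Hmga1 and -0.43 for Hmga2). Hmga1 (ENSMUSG00000046711.17, chromosome 17 from 27556497 to 27563674, plus strand), a chromatin protein of dividing cells, fell from 95.5 and 94.4 CPM to 50.3 and 51.0 CPM, a log2 fold change of -0.91 ± 0.0486 (adjusted p = 3.74e-18, edgeR's quasi-likelihood test). It was the most abundant of the 8 in input, and was below Igf2bp1, Igf2bp2 and Hmga2 in CPM in RIP. Hmga2 (ENSMUSG00000056758.15, chromosome 10 from 120361275 to 120476469, minus strand), a classic let-7 target, stood at 59.2 and 62.3 CPM in input and at 64.2 and 64.8 CPM in RIP. Its log2 fold change of 0.09 ± 0.0524 was not called (adjusted p = 0.128, edgeR's quasi-likelihood test), and with total counts it was called lower, at -0.26.

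Hmga1 has a coding copy, Hmga1b, on chromosome 11 from 120762794 to 120764419, whose coding sequence has the same length of 324 nt, and reads of the pair may be shared or left out in counting. Hmga1b had 806 and 748 counts in input and 738 and 770 in RIP. It also fell, by 0.51 on the log2 scale with a standard error of 0.0766, but was called higher with the offsets for coding length (0.80) and for total exonic length (0.30). The split of reads between them is uncertain.

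RIP and input libraries of all 8 genes did not overlap in CPM, but neither did those of 88% of the genes tested. The kit does not mark strand, so reads of overlapping genes on the other strand cannot be told apart. Malsu1, which overlaps the end of Igf2bp3, held 1720 and 1680 counts in input and 720 and 874 in RIP. AI413582, which overlaps the end of Hmga1, held 593 and 592 in input and 322 and 291 in RIP, and Gm49774, an antisense gene at its start, 188 and 168 in input and 154 and 163 in RIP. Antisense or nested genes at Lin28a, Trim71, Igf2bp1 and Hmga2 had at most 7 counts in any library.

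Ratios of family members within a library do not depend on the scaling between libraries. Igf2bp1 counts were 0.906 and 0.868 times those of Igf2bp2 in the input libraries and 2.59 and 2.26 times in the RIP libraries, so the order of these messages in counts was inverted. Igf2bp1 over Igf2bp3 went from 2.87 and 3.04 to 5.47 and 5.73, and Igf2bp3 over Igf2bp2 from 0.316 and 0.285 to 0.473 and 0.395. Hmga2 over Hmga1 went from 0.620 and 0.660 to 1.28 and 1.27, a second inversion in counts, by 0.99 on the log2 scale. Per kilobase of exon Hmga1 stayed above Hmga2 in both groups, and its count is uncertain because of Hmga1b. This ratio does depend on the trend with length. With the offset for total exonic length Hmga1 and Hmga2 stood close, at -0.36 and -0.43, and with that for coding length at 0.40 and 1.39. Lin28a over Lin28b went from 2.38 and 2.71 to 3.29 and 3.90. Within each pair the RIP and input libraries did not overlap. Which gene is the numerator was free, and the 3 IGF2BP ratios depend on each other. The exact two-sided permutation test gave 0.333 for each pair, raw and Benjamini-Hochberg adjusted over the 5, which is the smallest p that 2 against 2 libraries allow.

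**Figure D2:**
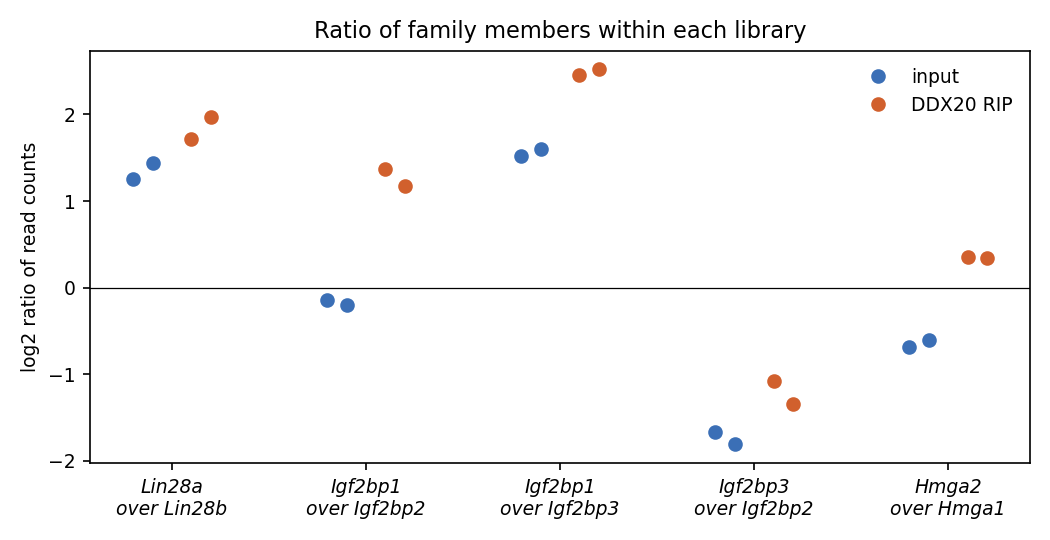
Log2 ratio of read counts of 2 family members within each library, with input in blue and DDX20 RIP in orange, 1 point per library. Igf2bp1 over Igf2bp2 and Hmga2 over Hmga1 cross 0 between input and RIP, and the points of each pair of groups do not overlap.

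On the scale per length (RPKM, which is CPM per kilobase of exon), Hmga1 was by far the most abundant in input, at 44.7 ± 0.365 (SD, n = 2). Hmga2 followed at 8.97 ± 0.318 and Igf2bp2 at 8.61 ± 0.133, which differed by little more than their spread. Next came Igf2bp1 at 5.84 ± 0.265. Igf2bp3 at 2.35 ± 0.206 and Lin28a at 2.32 ± 0.103 overlapped. Trim71 stood at 1.02 ± 0.0432 and Lin28b at 0.404 ± 0.0546. In RIP the order in RPKM was Hmga1 (23.8 ± 0.208), Igf2bp1 (16.9 ± 1.02), Hmga2 (9.53 ± 0.0592), Igf2bp2 (9.10 ± 0.308), Igf2bp3 (3.58 ± 0.335), Lin28a (2.43 ± 0.0417), Trim71 (1.87 ± 0.000102) and Lin28b (0.30 ± 0.0415). Igf2bp1 moved from the fourth to the second place, and the other 7 kept their order. With the length of the representative transcript in place of all exons, a choice made after seeing the data, Igf2bp2 and Hmga2 stood at 16.3 and 16.4 RPKM in input, and Igf2bp3 at 4.41 lay above Lin28a at 2.65.

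Over 14677 tested protein-coding genes, log2 fold change rose with coding length (Spearman's rho 0.637, across genes, which are not independent replicates), with total exonic length (0.529) and less with 3′ UTR length (0.266). The same ranks over the 8 axis genes gave 0.619, 0.738 and 0.643, all from the same 4 libraries. In some axis genes a short coding sequence sits before a long 3′ UTR. Hmga2 has 327 nt of coding sequence and 2977 nt of 3′ UTR, Lin28a 630 and 2775 nt, and Lin28b 816 and 4445 nt. Over these genes the median coding length was 1378 nt and the median 3′ UTR 955 nt. Hmga1 has 324 and 1178 nt, while the coding sequences of Igf2bp1 (1734 nt), Igf2bp2 (1779 nt), Igf2bp3 (1740 nt) and Trim71 (2568 nt) are longer than the median.

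Set against genes of their own coding length, several members changed places. The trend over all genes stood at -1.30 at the coding length of Hmga2, which lay at 0.09. With an offset for this trend Hmga2 was called higher, at 1.39 ± 0.0534, more than Igf2bp1 at 1.17 ± 0.0458. Lin28a was called higher at 0.79 ± 0.129 and Hmga1 at 0.40 ± 0.0494, whereas Igf2bp2 was called lower at -0.31 ± 0.0521. Trim71 stood on the trend, at 0.08 ± 0.111, and was no longer called, and Lin28b stood at 0.05 ± 0.222. With Igf2bp3 at 0.24 ± 0.0846, 5 of the 8 were higher and 1 lower, against 39.3% and 33.9% (73.2% in either direction) of the 14677 genes in that fit. With an offset for total exonic length, which counts the 3′ UTR, the picture was another: only Igf2bp1 was called higher, at 0.78, while Hmga2 (-0.43), Hmga1 (-0.36), Igf2bp2 (-0.50) and Lin28b (-1.14) were called lower. Igf2bp3 (-0.035) and Trim71 (0.15) were not called there. Igf2bp1 was the only member called higher under both offsets and under every scaling.

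**Figure D3:**
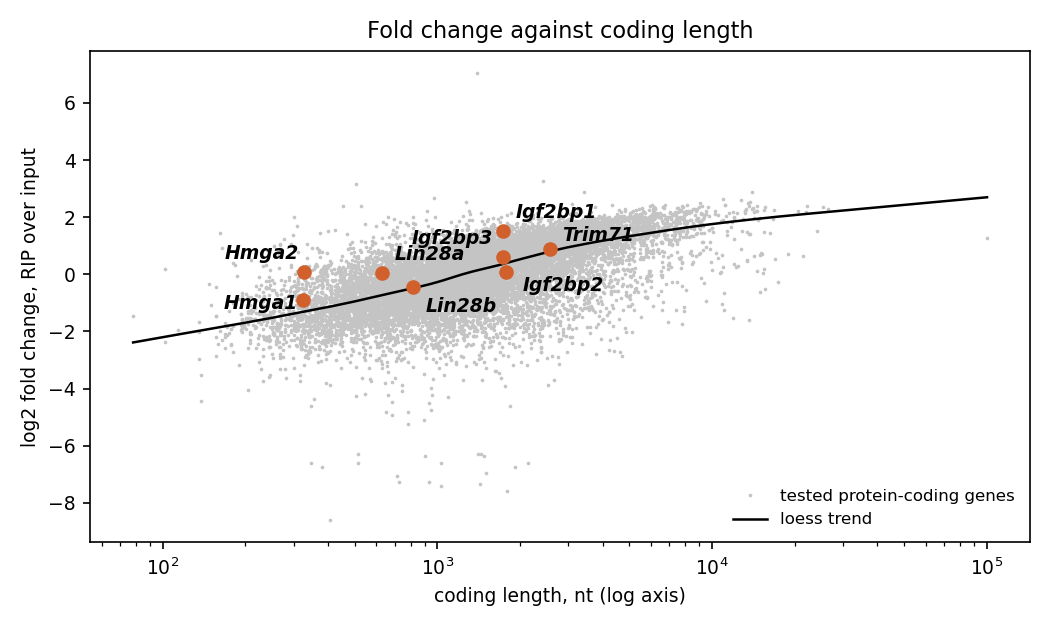
Log2 fold change of RIP over input against coding length (log axis, stop codon included) for 14677 tested protein-coding genes in grey, with the loess trend as a line and the 8 axis genes in orange. Hmga2, Lin28a and Igf2bp1 lie above the trend, Trim71 and Lin28b lie on it, and Igf2bp2 lies below it.

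**Figure D4:**
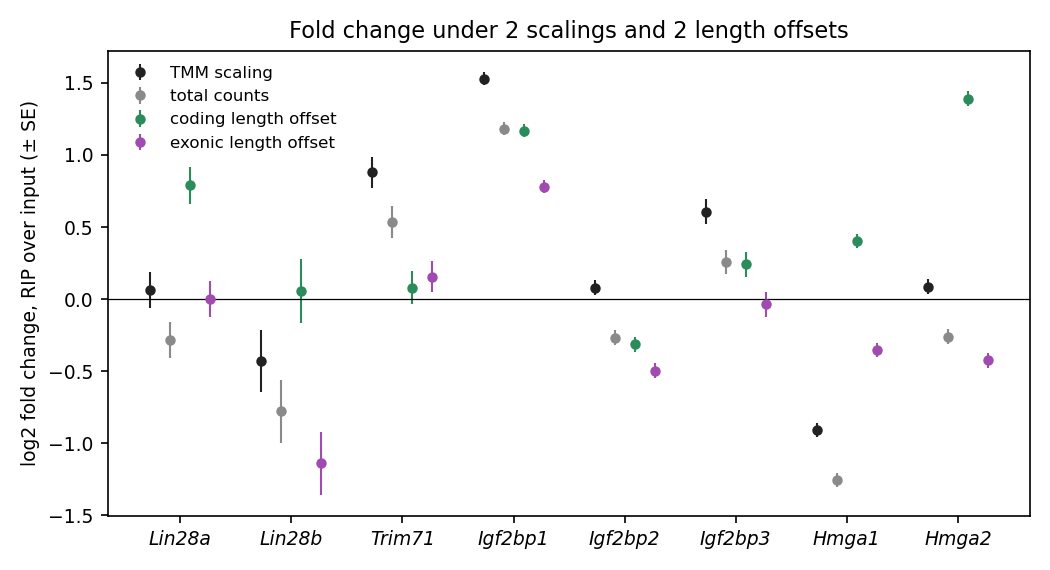
Log2 fold change of RIP over input with its standard error for the 8 axis genes, fitted with TMM scaling, with total counts, and with offsets for coding length and for total exonic length. Igf2bp1 stays between 0.78 and 1.53 in all 4 fits, while Hmga2 ranges from -0.43 to 1.39.

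The gene nearest to each member in log2 CPM over the 4 libraries was taken among tested protein-coding genes. It was Pygo1 for Lin28a (distance 0.0800), Clic6 for Lin28b (0.198), Sox11 for Trim71 (0.0989), Abcc5 for Igf2bp1 (0.109), Paf1 for Igf2bp2 (0.0494), Cpeb4 for Igf2bp3 (0.0631), Trappc4 for Hmga1 (0.0846) and Gpn1 for Hmga2 (0.0399). Abcc5, with 4311 nt of coding sequence, had a log2 fold change of 1.49 beside 1.53 for Igf2bp1, a likeness that the choice of the nearest gene fixes. The coding sequence of Igf2bp1 has 1734 nt.

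Messages of the machinery that makes and uses let-7 mostly rose. Of 16 genes of microRNA processing, 12 rose, 2 fell and 2 did not pass, with a median log2 fold change of 1.39. Over all genes tested 38.7% were higher and 38.6% lower, with a median of -0.05. Drosha, the nuclear nuclease that cuts primary transcripts, rose from 131.1 ± 6.43 to 434.9 ± 6.14 CPM (SD, n = 2), and Dicer1, which cuts the hairpins and is itself a let-7 target, from 70.4 ± 0.392 to 308.9 ± 5.70 CPM. Ago2, which carries the mature microRNA, rose by 1.72. Tut4 (1.01) and Tut7 (1.29), the uridylyltransferases that LIN28A recruits to let-7 precursors, rose as well. Dis3l2, the exonuclease that degrades the uridylated precursors, stood at -0.16 ± 0.133 and was not called with TMM, but was called lower with total counts (-0.50) and with the offsets for coding length (-0.97) and exonic length (-0.85). The double-stranded RNA-binding partners of Dicer fell, Prkra by 1.25 and Tarbp2 by 0.23. With the coding length offset 10 of the 16 were higher and 4 lower, against 39.3% and 33.9% of all genes in that fit. Tut4 turned to -0.31, and Tut7 (0.04) and Tarbp2 (-0.07) were no longer called.

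The let-7 loci themselves had no counts: 12 annotated hairpin genes, Mir98 included, were at 0 in all 4 libraries. How reads in overlapping genes were counted is not given, so these counts do not show that let-7 was absent. Of 4 listed host transcripts 3 were tested and 1 symbol, Mirlet7bhg, was not matched. Huwe1, whose introns hold let-7f-2 and miR-98, rose by 2.23, and Wdr82, the host of let-7g, by 0.68. Mir99ahg, the noncoding host of let-7c-1, fell by 1.74, from 2.13 ± 0.0839 to 0.636 ± 0.146 CPM.

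Among 19 other described let-7 targets 13 rose, 4 fell and 2 did not pass, with a median of 0.65. Over all genes tested 38.7% were higher and 38.6% lower. With the coding length offset 16 of the 19 were higher and 2 lower, against 39.3% and 33.9% of all genes in that fit. Igf1r, the growth factor receptor, rose from 72.7 ± 0.560 to 247.6 ± 4.54 CPM, Myc rose by 1.42, Cdk6 by 1.26 and Ccnd2 by 0.57 (-0.17 with the exonic length offset). Hras, a small GTPase of growth factor signalling, fell by 1.38, Mycn by 0.28 and Nras by 0.15. With the coding length offset Nras stood at 0.68. Nras was not called without RIP replicate 1 (-0.10), without RIP replicate 2 (-0.11) or with no low-count filter (-0.09). Mycn was not called without input replicate 1 (-0.14), RIP replicate 1 (-0.23) or RIP replicate 2 (-0.25), nor with no filter (-0.22), by DESeq2 (-0.25) or with the exonic length offset (-0.16).

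Of 9 partners and clients of the IGF2BP proteins 3 rose and 4 fell, with a median of 0.02, which is near the shares of all genes tested (38.7% higher and 38.6% lower). Dhx9 (1.54) and Hnrnpu (1.12), which join IGF2BP1 on the MYC message, rose. Ybx1, from the same complex, fell by 1.29 and Actb, a localised client, by 0.27 (0.04 and not called with the exonic length offset). H19, the imprinted noncoding RNA that binds IGF2BPs, fell from 131.6 ± 3.54 to 21.7 ± 0.291 CPM. Igf2, which gave the proteins their name, was called lower, on 31 and 51 counts in input and 4 and 2 in RIP.

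Of 7 other HMG proteins, which share with HMGA a role on chromatin, 6 fell and none rose, with a median of -0.77. With the coding length offset 3 were higher and 2 lower. Over all genes tested 38.7% were higher and 38.6% lower, and with that offset 39.3% and 33.9%. Hmgn2 fell by 1.35 and Hmgn1 by 0.71, but stood at 0.10 and 0.69 with that offset. With the exonic length offset they were called lower (-1.17 and -0.57), as were Hmgb1 (-1.05), Hmgb2 (-0.67) and Hmgb3 (-0.75). Hmgn3 (-0.04) was not called there, and Hmgn5 (0.51) was called higher. With TMM the 3 other TRIM-NHL genes tested rose, beside 38.7% of all genes. Trim2 rose by 1.21, Trim3 by 1.16 and Trim32 by 0.58. Trim32 was not called with the coding length offset (0.07) and Trim2 not with the exonic length offset (0.09). Of 9 fetal growth genes 3 rose and 4 fell, again near the 38.7% and 38.6% of all genes, with a median of -0.20 (1 higher and 5 lower with the coding length offset). Igf2r, the clearance receptor for IGF2, rose by 2.32 and Peg3 by 0.80 (-0.50 with the coding length offset), while Dlk1 fell by 1.15 and Plagl1 by 1.14.

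**Figure D5:**
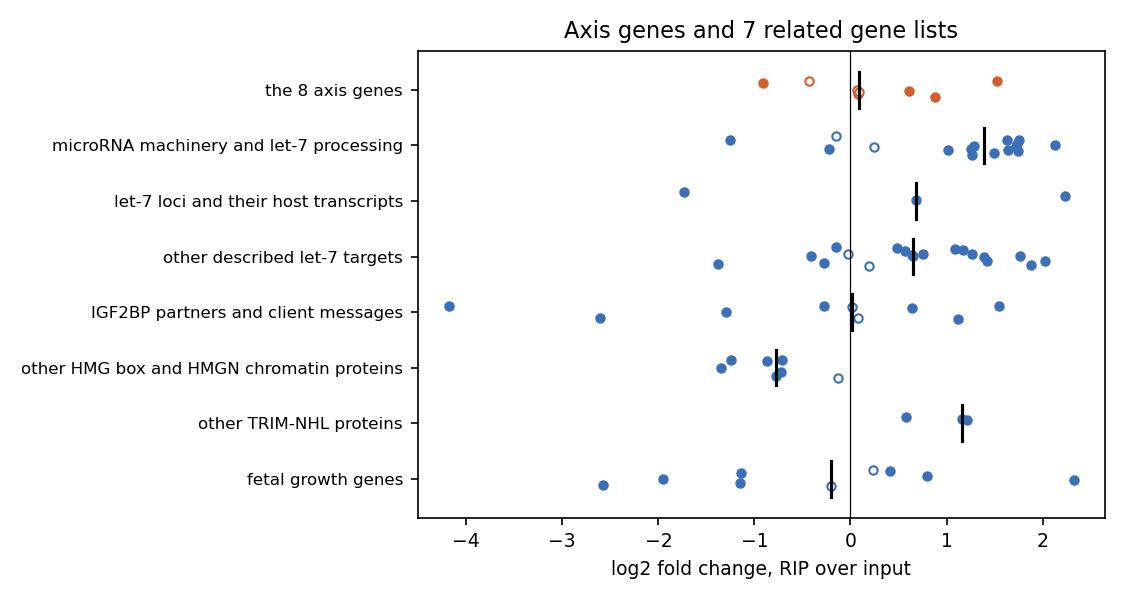
Log2 fold change of RIP over input for the 8 axis genes (orange) and the tested members of 7 related lists (blue), with filled points for genes that passed the test, open points for those that did not and a bar at each median. MicroRNA machinery has a median of 1.39 and other HMG proteins one of -0.77, with the axis genes at 0.08.

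Markers of the cells in which these genes could be expressed were present in every library. The 13 germ cell markers summed to between 761.1 and 769.8 CPM in input and between 343.6 and 345.8 CPM in RIP, and none was at 0. Of these 3 rose and 8 fell, but 0 were higher and 10 lower both with total counts and with the coding length offset. Over all genes 28.7% were higher and 50.8% lower with total counts, and 39.3% and 33.9% with that offset. Zbtb16 and Sall4, the most abundant of the germ cell markers called higher, rose by 0.38 and 0.39. They did not rise with total counts (0.04 for both) or with the coding length offset (-0.15 and -0.62). Without input replicate 2 Zbtb16 was not called (0.24). Tex101 fell by 1.44 and Sohlh1 by 0.69 (0.34 with the exonic length offset). The summed levels of 8 Sertoli cell markers (2767 to 2798 CPM in input and 1816 to 1820 CPM in RIP), 7 Leydig cell, 6 endothelial, 6 macrophage and 5 red blood cell markers were lower in both RIP libraries than in both input libraries. Those of 7 peritubular and stromal markers were higher (2926 to 2931 CPM and 5685 to 5862 CPM), which rested on the collagen gene Col1a1 (1620.1 ± 16.1 CPM in input and 4874 ± 135 CPM in RIP). The other 6 summed to 1316.9 and 1299.6 CPM in input and to 892.1 and 906.5 CPM in RIP, a sum added after seeing the data, and in the other marker lists the direction was the same without the most abundant marker. The members called were 6 lower and 1 higher for Sertoli cells, 7 lower for Leydig cells, and 4 lower and 1 higher for endothelial cells. They were 6 lower for macrophages, 5 lower for red blood cells, and 4 lower and 2 higher for stromal cells. Beside these stand 38.6% lower and 38.7% higher over all genes tested. A marker's part of the reads after precipitation does not measure the number of cells of a type or their RNA per cell. The part of these markers in the values of the axis genes was not tested. Ddx20 itself stood at 41.3 ± 0.104 CPM in input and 80.4 ± 3.96 CPM in RIP, a log2 fold change of 0.96 (0.20 with the coding length offset).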

How the data were processed

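The values are raw counts per gene that the authors deposited for 4 libraries. The submitters' processing notes list featureCounts, STAR 2.7.2b, SAMtools, cutadapt 4.1 and Trimmomatic 0.36, and the build GRCm38. Their settings and the annotation release: not given in the sources used here. Between 65.37% and 67.40% of nonzero counts were even, the pattern that counting each mate of a read pair leaves. Identifiers were matched without their version to GENCODE M21, which named 52081 (94.1%). The representative transcript had the best APPRIS rank, then the greatest length.

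Genes were kept by filterByExpr, scaled by TMM and tested with edgeR 4.0.16 (robust quasi-likelihood) in R 4.3.3, with a threshold of 0.05. The SE of a log2 fold change was taken as its size over the root of the F statistic. Offsets were loess trends (span 0.3) of log2 fold change on length. The fit was run on simulated counts in which few genes changed, equally up and down, with no trend on length. These data differ from that setting, so it does not check the scaling. Alternatives, among them DESeq2 1.42.0 and limma 3.58.1 (voom), are given at the end.

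The members and lists were chosen with earlier results of these data known. Named were the 8 genes, the 2 most abundant called members of each pathway list and of the germ cell list in each direction, and further members of pathway lists with their values. For the other cell types the rule's genes are given as counts and sums only. The values of 1 list member are not reported here. No batch is labelled.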

Additional observations from a re-analysis of the deposited data

How the results depend on the processing

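Across RLE, upper-quartile and total-count scaling, 2 other filters, DESeq2, limma-voom, the replicate block, halved counts and leaving out each library, Igf2bp1, Trim71 and Igf2bp3 stayed called higher and Hmga1 called lower. All genes counted 4210 higher and 4426 lower when tested against 1.5-fold, where Igf2bp3 (0.61) was not called. Axis genes counted 5 higher with no low-count filter and with the coding length offset, and 1 with the exonic length offset. All genes counted 6910 of 30658, 5768 of 14677 and 6533 of 17357 higher in these fits. The axis genes counted 5 lower under upper-quartile scaling and also under total counts, where all genes counted 8798 and 8845 of 17422. Of the axis genes 2 were lower with at least 10 counts in every library and with halved counts, and 4 with the exonic length offset. All genes counted 6151 of 15294, 6511 of 15771 and 5606 of 17357 lower there.

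With upper-quartile scaling and with total counts, log2 fold changes were -0.28 and -0.28 for Lin28a, -0.77 and -0.78 for Lin28b, -0.26 and -0.27 for Igf2bp2 and -0.25 and -0.26 for Hmga2, all called lower. With at least 10 counts in every library Lin28a stood at -0.022 and Igf2bp2 at -0.0055, uncalled, and Lin28b at -0.52, called. With halved counts Lin28b was called at -0.49. With no filter Igf2bp2 (0.13) and Hmga2 (0.14) were called higher. Igf2bp2 ranged from 0.067 to 0.15 when 1 library was left out, and was called without RIP replicate 1 (0.15). For these the cause was not tested.

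With the exonic length offset Lin28a stood at -0.00054, Lin28b at -1.14, Igf2bp2 at -0.50, Igf2bp3 at -0.035, Hmga2 at -0.43, Trim71 at 0.15, Hmga1b at 0.30, Ccnd2 at -0.17, Actb at 0.035, Peg3 at -0.13 and Sohlh1 at 0.34. With the coding length offset Lin28a stood at 0.79, Lin28b at 0.053, Igf2bp2 at -0.31, Hmga1 at 0.40, Hmga2 at 1.39, Trim71 at 0.080, Hmga1b at 0.80, Tut4 at -0.31, Nras at 0.68, Hmgn1 at 0.69, Hmgn2 at 0.099, Peg3 at -0.50, Sall4 at -0.62 and Zbtb16 at -0.15. Both offsets subtract the trend of all genes by construction.

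By representative transcript length, chosen after seeing the data, input RPKM was 2.65 for Lin28a, 0.678 for Lin28b, 6.74 for Igf2bp1, 16.3 for Igf2bp2, 4.41 for Igf2bp3, 47.4 for Hmga1 and 16.4 for Hmga2. The labels do not say that equal replicate numbers mark a shared preparation, and the replicate differences of input and RIP correlated at -0.0010 over genes. With the replicate block 6734 genes were higher and 6655 lower, and Lin28a stood at 0.06, Lin28b at -0.43, Igf2bp1 at 1.53 and Hmga1 at -0.91, with no call of the 8 changed. Lin28b rests on 80 to 101 counts per library, and its standard error of 0.218 is the largest of the 8.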

Other observations

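Other messages with let-7 seed matches were also tallied, as a description with no test. Of the tested protein-coding genes outside the axis, 468 had at least 1 8mer in the 3′ UTR, with a median log2 fold change of 0.38. Another 1696 had 7mers only, at 0.34, and 12303 had no match, at 0.05. The 70 genes with at least 3 matches stood at 0.63. Their 3′ UTRs differ in length, with medians of 2401, 2292, 820 and 4561 nt in the same order. With the offset for coding length the medians were 0.20, 0.16, 0.0018 and 0.41, and with the offset for total exonic length, which counts the 3′ UTR, they were 0.05, -0.00020, 0.05 and -0.06. With no length offset the share called higher was 53.0%, 52.0%, 42.7% and 61.4% in that order. The shares called with the offsets were not tallied, and a part of the matches in these values was not tested.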
